A study of Mus musculus with 79 samples.

Results

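The genes described are 7 that encode methyl-CpG reader proteins or close relatives of them, taken by symbol from the 25965 genes of the hypothalamic expression table: Mbd1, Mbd2, Mbd3, Mbd4, Zbtb33, Zbtb4 and Zbtb38. All 7 were found in the table and all 7 passed its expression limit. Hypothalami of mice aged about 14 weeks were compared between 2 genotypes of Dnmt3a, the maternal allele being written first. Dnmt3a +/+ animals carried wild-type alleles only. Dnmt3a Δ/D329A animals carried the maternal Δ allele, in which an oocyte-specific Zp3-Cre had removed exon 18, and the paternal D329A allele, which substitutes a residue in the PWWP domain. RNA-seq covered 5 Dnmt3a +/+ and 4 Dnmt3a Δ/D329A animals, with 1 library each, and ChIP-seq covered 3 animals of each genotype, each giving H3K4me3, H3K27me3, H3K36me3 and input libraries. A legend of the study gives the RNA-seq animals as female, while another describes expression and marks together as male hypothalamus. Xist was expressed in the RNA-seq libraries, and X coverage of the ChIP-seq input was 0.415 to 0.429 of autosomal coverage. The RNA-seq animals are therefore taken as female and the ChIP-seq animals as male, so that expression and marks come from different mice. Dnmt3a Δ/+ and Dnmt3a +/D329A animals have no expression or mark values in these tables, so that the 2 alleles cannot be told apart.

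Methyl-CpG readers bind methylated cytosines and bring repressive machinery to them, and so act downstream of the DNA methyltransferases. MBD1, MBD2 and MBD4 carry a methyl-CpG binding domain. MBD1 works with the SETDB1 histone methyltransferase, MBD2 is a subunit of the NuRD remodelling and deacetylase complex, and MBD4 is a glycosylase that removes thymine from the mismatches left when methylated cytosine deaminates. MBD3 is related to MBD2 and builds NuRD complexes that lack MBD2, but mammalian MBD3 has lost most of the affinity for methylated DNA. ZBTB33 (Kaiso), ZBTB4 and ZBTB38 recognise methylated DNA with zinc fingers instead, and Kaiso recruits the NCoR corepressor. In brain the readers are of interest because neurons carry much methylated DNA.

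Promoter sequences are shown for Mbd3, whose expression differed most between the genotypes, and for a pair of the starts of Zbtb38, whose start in the expression table lay apart from its H3K4me3. RefSeq promoters of GRCm38.p6, each running from 250 bases before to 50 bases after a start, were found for 5 of the 7 genes. The Mbd3 promoter lies at chr10:80399482-80399781 on the minus strand. The first RefSeq start of Zbtb38 lies 21156 bp downstream of the start in the expression table, with a promoter at chr9:96731626-96731925 on the minus strand. The second lies 32981 bp downstream, with a promoter at chr9:96719801-96720100. All are written 5′ to 3′ on the strand of the gene, with every CpG in capitals.
Mbd3: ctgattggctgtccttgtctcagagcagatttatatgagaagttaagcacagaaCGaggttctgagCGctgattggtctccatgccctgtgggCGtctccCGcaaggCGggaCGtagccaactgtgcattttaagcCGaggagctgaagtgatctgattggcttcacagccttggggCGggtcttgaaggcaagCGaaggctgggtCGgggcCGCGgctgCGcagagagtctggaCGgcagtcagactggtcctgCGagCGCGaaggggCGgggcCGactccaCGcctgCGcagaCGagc
Zbtb38, start 21156 bp downstream: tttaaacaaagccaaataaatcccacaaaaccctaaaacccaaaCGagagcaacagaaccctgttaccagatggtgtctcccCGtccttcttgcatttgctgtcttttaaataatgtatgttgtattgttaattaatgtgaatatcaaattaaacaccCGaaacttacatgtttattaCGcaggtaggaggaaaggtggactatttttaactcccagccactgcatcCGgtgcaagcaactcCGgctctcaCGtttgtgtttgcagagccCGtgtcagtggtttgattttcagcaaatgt
Zbtb38, start 32981 bp downstream: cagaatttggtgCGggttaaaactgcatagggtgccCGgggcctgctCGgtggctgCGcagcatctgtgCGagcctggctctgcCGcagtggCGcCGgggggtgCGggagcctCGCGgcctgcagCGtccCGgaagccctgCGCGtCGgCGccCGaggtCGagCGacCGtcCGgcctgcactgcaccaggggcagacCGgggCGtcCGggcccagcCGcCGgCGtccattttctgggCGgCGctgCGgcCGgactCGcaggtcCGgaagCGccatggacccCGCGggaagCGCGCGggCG

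These 300 bases held 22 CpGs at Mbd3, 8 at the upstream Zbtb38 start and 41 at the downstream one, against a median of 7 over 32851 RefSeq promoters. As many CpGs as at the downstream Zbtb38 start were found in 3.458% of promoters, and as many as at Mbd3 in 23.1%. The promoters of Mbd4, Zbtb33 and Zbtb4 held 25, 34 and 22 CpGs, and another RefSeq start of Zbtb38, 33386 bp downstream, held 25. The palindrome CGCG, adjacent CpGs that Kaiso binds when methylated, occurred 2 times each at Mbd3, Mbd4 and Zbtb33, 5 times at the Zbtb38 start 32981 bp downstream and 4 times at the start 33386 bp downstream, and in 38.04% of all promoters. It was not found at Zbtb4 or at the upstream Zbtb38 start. An unmethylated sequence bound by Kaiso, TCCTGCNA on either strand, occurred 1 time, at Mbd3, and in 4.956% of all promoters.

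The libraries held between 3837324 and 9729552 reads on nuclear genes, with the lowest number in Dnmt3a Δ/D329A replicate 2. Dnmt3a itself ranged from 3.28 to 4.31 RPKM (reads corrected for exon length and library size) in Dnmt3a +/+ and from 2.84 to 3.30 RPKM in Dnmt3a Δ/D329A, a log2 difference of -0.28 with an adjusted p of 0.355 (limma). A substitution and the loss of 1 exon leave most of the transcript countable, so that the gene total does not check the genotypes. Hypothalamic neuropeptide genes were expressed in every library, among them Pmch at 149.5 to 312 RPKM. Xist ranged from 13.9 to 24.05 RPKM and the 4 chromosome Y genes listed held at most 1 read in any library, whereas X coverage of the ChIP-seq input was 0.415 to 0.429 of autosomal coverage. Genes that mark a neighbouring region, the thalamus, were not called (lowest adjusted p = 0.268, limma), although their sum was higher in most Dnmt3a Δ/D329A libraries. The summed thalamic markers Prkcd, Rora and Tcf7l2 ranged from 8.31 to 12.2 RPKM in Dnmt3a +/+ and from 11.8 to 26.98 RPKM in Dnmt3a Δ/D329A, which overlap narrowly. The summed anterior pituitary markers ranged from 0.268 to 15.2 RPKM and from 1.23 to 8.83 RPKM, and the choroid plexus markers from 1.417 to 2.89 RPKM and from 2.43 to 5.02 RPKM. The sums for neurons, astrocytes, oligodendrocytes and their precursors, microglia, endothelial cells, striatum, and meninges and melanocytes also overlapped. In these lists 1 gene was called, Dct, a melanocyte enzyme named after its values were seen, with 0 to 4 reads in Dnmt3a +/+ and 46 to 73 in Dnmt3a Δ/D329A. In bulk tissue, fewer cells of a type cannot be told apart from less RNA per cell.

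Zbtb4 was the most highly expressed of the 7 genes and Mbd4 by far the lowest. In Dnmt3a +/+, the mean log2 RPKM was 2.92 ± 0.41 (SD, n = 5) for Zbtb4, 2.36 ± 0.43 for Mbd1, 2.18 ± 0.28 for Zbtb38, 2.15 ± 0.21 for Mbd3, 1.94 ± 0.15 for Mbd2, 1.94 ± 0.19 for Zbtb33 and -0.28 ± 0.14 for Mbd4. These levels put Zbtb4 above 81.3% of the 17839 genes tested and Mbd4 above 33.6% of them, with the other 5 between 64.7% and 72.0%. A gene without reads is deposited at 0.9 reads, so that short genes without reads are among the 17839. At a limit of 0.5 RPKM 13169 genes remained. Zbtb4 exceeded Mbd1 in 9 of 9 libraries, by 0.56 ± 0.18 on the log2 scale in Dnmt3a +/+. Zbtb33 exceeded Mbd4 in 9 of 9 libraries, by 2.22 ± 0.17. The steps between them were smaller than or close to their spread: Mbd1 exceeded Zbtb38 in 7 of 9 libraries and Mbd2 exceeded Zbtb33 in 5 of 9. Mbd3 changed place in this order. It exceeded Zbtb38 in 2 of 5 Dnmt3a +/+ libraries and in 4 of 4 Dnmt3a Δ/D329A libraries, where the gap was 0.54 ± 0.49 in favour of Mbd3.

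**Figure D1:**
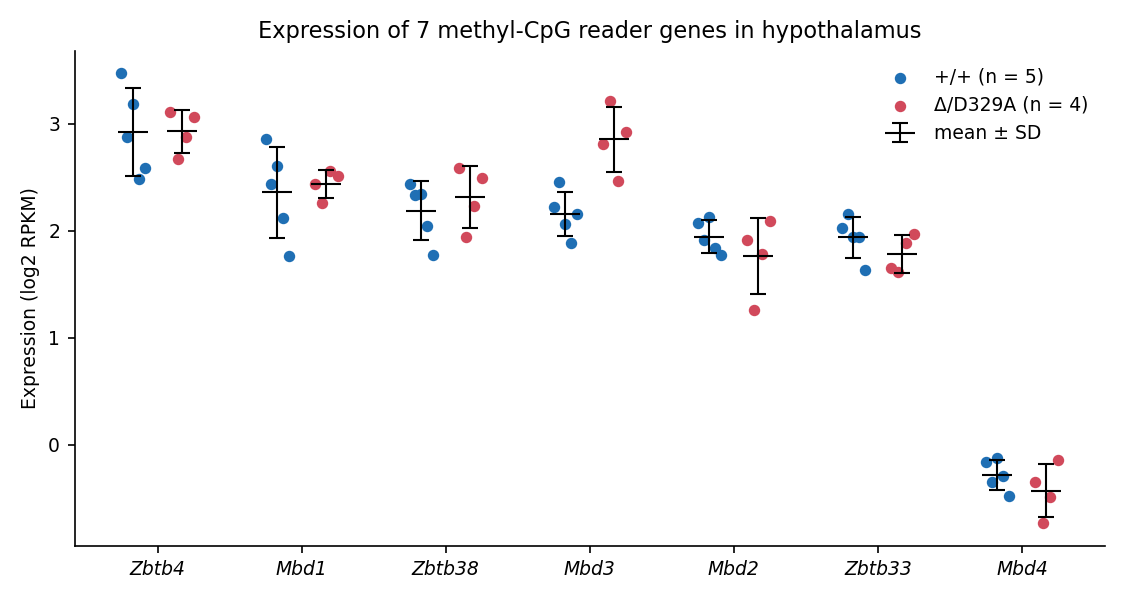
Expression of the 7 methyl-CpG reader genes (log2 RPKM, vertical axis), with 1 point per library and the mean ± SD in black, for Dnmt3a +/+ (n = 5, blue) and Dnmt3a Δ/D329A (n = 4, red). The 4 Dnmt3a Δ/D329A libraries of Mbd3 lie above the 5 Dnmt3a +/+ libraries, the lowest of them narrowly, and the groups of the other 6 genes overlap.

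To assess whether readers of DNA methylation were expressed differently in Dnmt3a Δ/D329A hypothalamus, the 7 genes were read from a limma comparison over all 17839 genes tested. None of the 7 was called at an adjusted p under 0.01, where 0.107% of genes were called. At an unadjusted p under 0.05, 1 of 7 passed (Mbd3) against 7.62% of all genes. edgeR and DESeq2 on whole reads recovered from the table also called 0 of 7, against 0.583% and 1.56% of the genes they tested. The log2 difference was above 0 for 4 genes and below 0 for 3, with a median of 0.0087 beside 0.065 over all genes tested. The latter median includes short genes without reads, whose difference is set by library depth at about 0.37. Over all genes at a limit of 0.5 RPKM it was 0.020.

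Mbd3, the NuRD subunit with little affinity for methylated DNA, was the member with the largest difference. Its 5 Dnmt3a +/+ libraries stood at 4.65, 5.47, 4.17, 3.70 and 4.45 RPKM, from 111 to 170 reads. Its 4 Dnmt3a Δ/D329A libraries stood at 7.01, 9.23, 5.53 and 7.60 RPKM, from 146 to 204 reads. All 4 were above all 5, but Dnmt3a Δ/D329A replicate 3 was only just above Dnmt3a +/+ replicate 2. The log2 difference was 0.70 ± 0.17 (SE), a 1.62-fold higher level with a 95% interval of 1.24 to 2.11. This did not pass the threshold (adjusted p = 0.250, limma), although it ranked 148th by p among all genes and the exact permutation p of 0.00794 is the smallest that 5 against 4 libraries allow. Groups without overlap in either direction were found for 3% of genes, and higher in Dnmt3a Δ/D329A for 1.78%. These shares include genes without reads, whose values follow library depth and so overlap between the genotypes. DESeq2 gave the lowest adjusted p of the settings run, 0.0272, against a threshold of 0.01.

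Mbd3 stood apart among the 7 genes in its exons, and the genotypes also differed in properties of their libraries. Mbd3 has the exons richest in GC (63.1%) and the shortest exon total (1987 bp) of the 7 genes. Over 15734 genes with a GC value, the median log2 difference rose from -0.12 in the 1574 genes poorest in GC to 0.15 in the 1574 richest, where 4.96% of genes differed by at least as much as Mbd3. With the trend on exon GC content removed from each library, the Mbd3 difference was 0.58 (adjusted p = 0.285), and with the trend on exon length removed it was 0.64 (adjusted p = 0.272). Both corrections were chosen after seeing the data. With each library centred on its median the groups overlapped, at 1.84 to 2.46 in Dnmt3a +/+ and 2.37 to 3.41 in Dnmt3a Δ/D329A (log2 RPKM). The difference was then 0.68 (adjusted p = 0.141). The mitochondrial share of reads also separated the genotypes, at 1.75% to 3.79% in Dnmt3a +/+ and 0.949% to 1.18% in Dnmt3a Δ/D329A, and the summed thalamic markers were higher in 3 of 4 Dnmt3a Δ/D329A libraries than in any Dnmt3a +/+ library. The part of the mitochondrial share and of the thalamic markers in the Mbd3 difference was not tested.

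**Figure D2:**
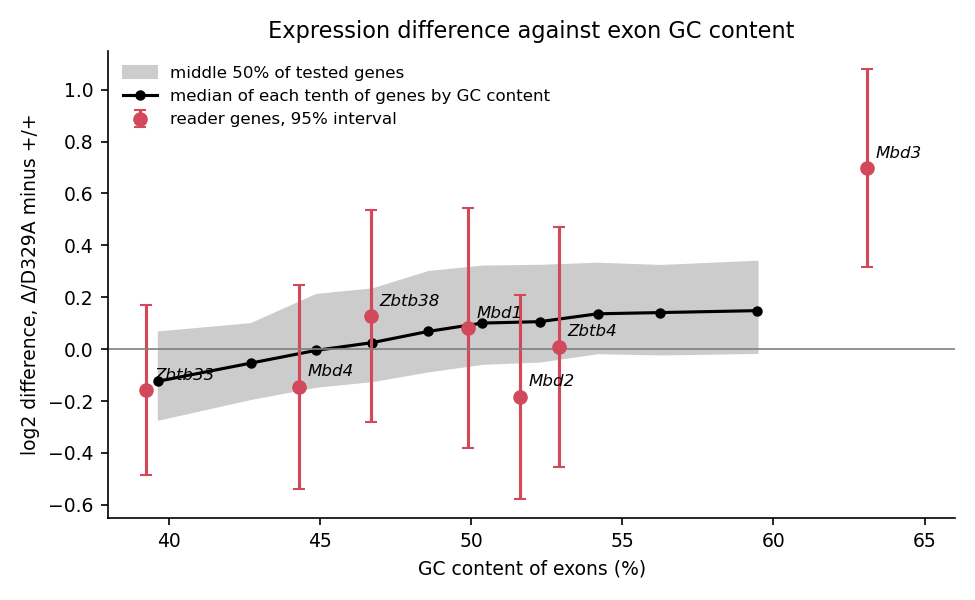
Log2 difference in expression between Dnmt3a Δ/D329A and Dnmt3a +/+ (vertical axis) against the GC content of exons in percent (horizontal axis), with the 7 reader genes in red with 95% intervals, medians over groups of genes of about equal number in black and the middle 50% of genes in grey. The medians rise from -0.12 to 0.15, Mbd3 lies at 63.1% GC and 0.70, and the intervals of the other 6 genes span 0.

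Mbd2, the methyl-binding subunit of NuRD, stood at 4.21, 3.76, 4.37, 3.57 and 3.41 RPKM in Dnmt3a +/+. In Dnmt3a Δ/D329A it stood at 3.76, 2.40, 3.44 and 4.25 RPKM. The groups overlapped, and replicate 2, the library with the fewest reads (81 on Mbd2), was the lowest. The log2 difference was -0.18 ± 0.18 (SE; adjusted p = 0.768, limma) and -0.017 without that library. Of 13 NuRD subunits listed, all were tested, 0 were called, and 7 had a difference above 0 and 6 below, with a median of 0.052. The subunits with the smallest p were Gatad2b, a scaffold of the complex (0.33, adjusted p = 0.397), and Mta1, a core subunit (0.36, adjusted p = 0.434). The remodeller subunits Chd3 and Chd4 differed by 0.26 and 0.052 (adjusted p = 0.679 and 0.957).

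Mbd1 stood at 7.26, 5.42, 6.09, 4.34 and 3.40 RPKM in Dnmt3a +/+ and at 5.41, 4.77, 5.88 and 5.68 RPKM in Dnmt3a Δ/D329A. The Dnmt3a +/+ values enclosed those of the other genotype, with a log2 difference of 0.080 ± 0.21 (SE; adjusted p = 0.945) whose sign depended on the libraries used. The wide range in Dnmt3a +/+ was shared with the median gene, which ranged from 0.805 to 1.49 log2 RPKM over those libraries, and centring each library on its median brought the SD of Mbd1 from 0.43 to 0.18. Of 5 MBD1 partners, 4 were tested and 0 called, with a median of 0.14. Atf7ip, the cofactor that links MBD1 to SETDB1, had the smallest p (0.27, adjusted p = 0.355), and Setdb1 itself differed by 0.0019.

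Mbd4, the mismatch glycosylase, was the lowest of the 7 genes in all 9 libraries, at 0.715 to 0.916 RPKM (median 0.816, 61 to 83 reads) in Dnmt3a +/+ and 0.601 to 0.906 RPKM (median 0.749, 32 to 58 reads) in Dnmt3a Δ/D329A. The groups overlapped, with a log2 difference of -0.14 ± 0.18 (SE; adjusted p = 0.845). With a 95% interval of 0.689- to 1.19-fold, a change of the size seen at Mbd3 lies outside the interval. Ift122, a ciliary transport gene that starts 99 bp away on the opposite strand, differed by 0.28 (adjusted p = 0.512). Of 5 related glycosylases and repair partners, 0 were called. Smug1, which removes uracil, had the smallest p (0.52, adjusted p = 0.355), and Tdg, the other thymine glycosylase, differed by -0.26 (adjusted p = 0.588).

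For all 3 zinc finger readers the genotypes overlapped. Zbtb33 (Kaiso), on the X chromosome, stood at 4.07, 4.45, 3.84, 3.84 and 3.09 RPKM in Dnmt3a +/+ and at 3.13, 3.06, 3.70 and 3.91 RPKM in Dnmt3a Δ/D329A. The groups overlapped, with a log2 difference of -0.16 ± 0.15 (SE; adjusted p = 0.756). Its last 474 bp overlap Fam70a on the opposite strand, and reads were counted without strand, so that reads there cannot be assigned to either gene. Fam70a differed by -0.64 (adjusted p = 0.355).

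Zbtb4 stood at 11.1, 7.31, 9.10, 5.59 and 6.02 RPKM in Dnmt3a +/+ and at 8.63, 6.36, 7.33 and 8.35 RPKM in Dnmt3a Δ/D329A. The Dnmt3a +/+ values again enclosed the others, with a log2 difference of 0.0087 ± 0.21 (SE; adjusted p = 0.997). Zbtb38 stood at 5.42, 5.04, 5.06, 4.12 and 3.41 RPKM and at 6.01, 3.85, 4.68 and 5.62 RPKM, which overlap, with a log2 difference of 0.13 ± 0.19 (SE; adjusted p = 0.881). The 95% intervals of fold were 0.73 to 1.39 for Zbtb4, 0.823 to 1.45 for Zbtb38 and 0.715 to 1.13 for Zbtb33. A transcript that lies within Zbtb38 on the same strand, E030011O05Rik, was at a mean of -3.07 and -2.27 log2 RPKM. Of 7 NCoR and Kaiso partners, 0 were called, with a median of 0.025. Gps2, an NCoR subunit, had the smallest p (0.40, adjusted p = 0.487), and Ncor1 and Hdac3, the corepressor and its deacetylase, differed by 0.11 and -0.037.

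Genes with related domains and the enzymes that write and erase methylation gave the same count. Of 7 other genes with an MBD fold or SRA domain, 0 were called and 6 had a difference below 0. Of 5 writers and erasers tested, 0 were called. Tet1, an eraser that oxidises methylated cytosine, was the 1 gene of the 41 tested in all 6 lists with an unadjusted p under 0.05 (7.62% of all genes), and the 1 without overlap between groups (3% of all genes): its log2 difference was -0.35 ± 0.15 (SE; adjusted p = 0.355), at 1.51 to 1.79 RPKM in Dnmt3a +/+ and 1.09 to 1.39 RPKM in Dnmt3a Δ/D329A. The median difference over the 41 genes was 0.0082, beside 0.065 over all genes tested and 0.020 over all genes at a limit of 0.5 RPKM. The shares over all genes include genes without reads.

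**Figure D3:**
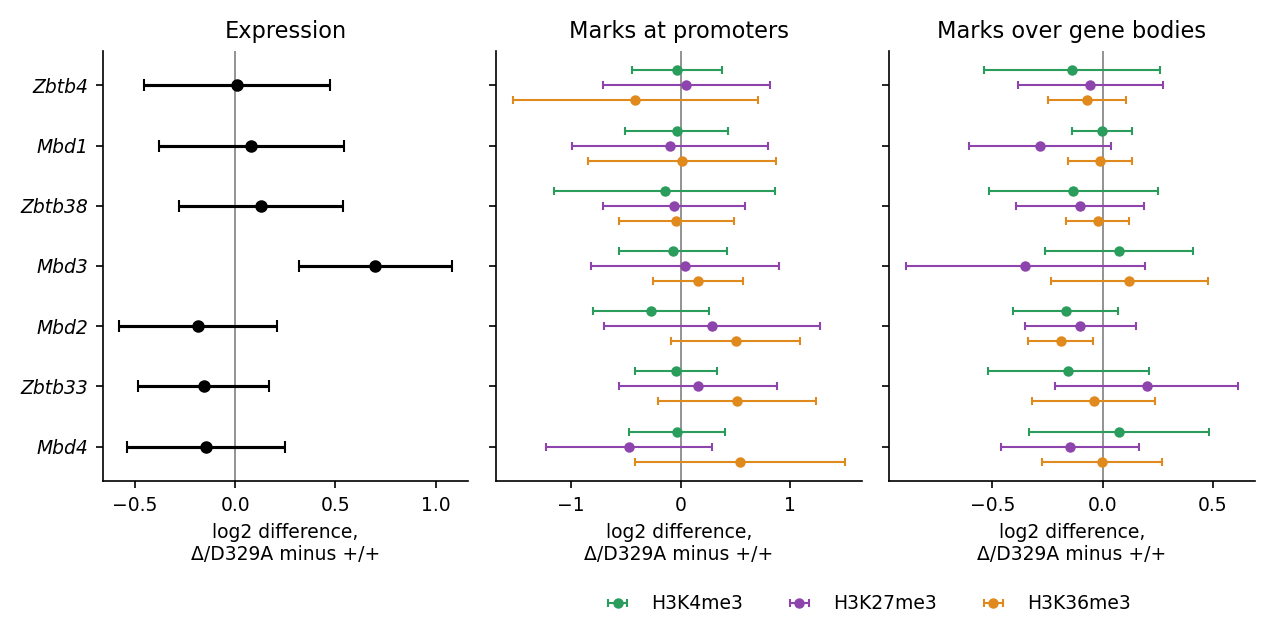
Log2 differences between Dnmt3a Δ/D329A and Dnmt3a +/+ (horizontal axes) with 95% intervals from limma for expression (left), and for H3K4me3, H3K27me3 and H3K36me3 at promoters (middle) and over gene bodies (right) of the 7 genes. Among expression intervals that of Mbd3 does not include 0, and among marks that of Mbd2 gene body H3K36me3 does not, with no adjusted p past its threshold.

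The genes whose pattern over the 9 libraries was most like each reader were found by Pearson's r of median-centred log2 RPKM, as a description over libraries that differ in depth. Each r is among the 2 highest of at least 11505 genes, so that high values come in part from the search. Values were not centred within genotype, so that r also holds any difference between the groups. Mbd3 was followed most closely by Dcc, a netrin receptor of axon guidance (r = 0.972), and Sema5a, a semaphorin (0.962). Zbtb33 was followed by Cisd2 (0.974) and Bbip1 (0.971), Mbd2 by 3110057O12Rik (0.961) and Palmd (0.940), and Zbtb4 by Lims2 (0.954) and Rfxank (0.947). Mbd4 was followed by Ap4e1 (0.941) and Kin (0.939), Mbd1 by Actr8 (0.937) and Cpne5 (0.937), and Zbtb38 by Krr1 (0.918) and Agtpbp1 (0.905). Among the 7 genes themselves the closest pair was Mbd2 and Mbd4 (r = 0.907), whereas Mbd2 and Mbd3 had an r of -0.41.

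The marks were read from tiles of 2000 bp placed every 1000 bp, as reads corrected for the mapped reads of the library (RPM) per tile. A promoter was taken as 1500 bp before to 500 bp after the start in the expression table, and a gene body as the rest of the gene. H3K4me3, a mark of active promoters, was high at 6 of the 7 promoters and low at the table start of Zbtb38. Mean levels in Dnmt3a +/+ (n = 3) were 23.6 ± 1.6 RPM (SD) at Mbd4, 22.8 ± 1.7 at Zbtb4, 17.7 ± 0.98 at Mbd1, 16.4 ± 1.7 at Zbtb33, 12.7 ± 2.1 at Mbd3, 11.6 ± 0.56 at Mbd2 and 2.62 ± 0.19 at Zbtb38, where the median promoter held 5.64 RPM. In this window the promoter of Mbd4, the gene with the lowest expression, had the highest H3K4me3 of the 7. The Mbd4 window also holds the neighbouring start of Ift122. Input at these promoters was 0.197 to 0.926 RPM.

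Where the highest H3K4me3 tile lay differed between the genes, and it was outside the promoter window at Mbd2, Mbd3 and Zbtb4. At Zbtb4 the tile centred 1088 bp downstream of the start held 42.1 ± 2.1 RPM (SD, n = 3) in Dnmt3a +/+ and 40.2 ± 9.0 RPM in Dnmt3a Δ/D329A. At Mbd2 the tile 812 bp downstream held 31.4 ± 1.4 and 27.7 ± 6.6 RPM, and at Mbd3 the tile 550 bp downstream held 24.95 ± 1.4 and 25.4 ± 5.4 RPM. At Mbd1, Mbd4 and Zbtb33 the highest tile lay within 370 bp of the start, at 28.2 ± 1.2, 24.2 ± 1.6 and 24.5 ± 2.7 RPM in Dnmt3a +/+. By its highest tile, in RPM with no input taken off, Mbd4 was thus close to Zbtb33 and Mbd3, within their spread. The order of H3K4me3 between genes depends on how a start falls on the tiles.

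No promoter was called for H3K4me3 between the genotypes, where 0% of 25952 promoters were called by limma, 3.47% had an unadjusted p under 0.05 (0 of the 7), and edgeR called 0.694% of those it tested (0 of the 7). All 7 log2 differences were below 0, from -0.27 ± 0.21 (SE) at Mbd2 and -0.14 ± 0.40 at Zbtb38 to -0.030 ± 0.18 at Mbd4. The median difference over all promoters was also below 0, at -0.066. The shared sign of the 7 rested on 1 library at most of these promoters. Dnmt3a Δ/D329A replicate 1 had the lowest H3K4me3 of the 6 libraries at 6 of the 7 promoters (18.1 RPM at Mbd4, 13.3 at Mbd1 and 7.02 at Mbd2), and its median autosomal tile held 0.376 RPM, against 0.129 to 0.200 in the other 5 libraries. Without it, the difference was 0.15 at Mbd4, 0.16 at Mbd1 and -0.047 at Mbd2. Centring each library on its median promoter turned 6 of the 7 differences positive, and moved the median difference over all promoters to 0.14.

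The H3K4me3 of Zbtb38 lay far inside the gene. The highest tile was centred 20830 bp downstream of the table start, at 40.3 ± 3.3 RPM (SD) in Dnmt3a +/+ and 35.0 ± 9.2 RPM in Dnmt3a Δ/D329A (n = 3 each), next to the RefSeq start 21156 bp downstream. A promoter window at that start held 35.8 ± 3.8 RPM in Dnmt3a +/+, above 97.4% of promoters, although its 300 bases have 8 CpGs. Windows at the starts 32981 and 33386 bp downstream, which overlap each other, held 23.0 ± 1.4 and 30.8 ± 1.4 RPM. The Dnmt3a Δ/D329A values were 32.2 ± 9.0, 22.3 ± 4.1 and 29.8 ± 5.3 RPM, and differences at the 3 starts were -0.19, -0.063 and -0.060 on the log2 scale, with an adjusted p of 1 (limma). The windows at RefSeq starts were added after seeing the data.

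H3K27me3, the Polycomb mark, was low at 6 of the 7 promoters, with Dnmt3a +/+ means of 0.025 RPM at Zbtb33 to 0.16 RPM at Mbd4, where 1 read is worth 0.0382 to 0.0672 RPM. The table start of Zbtb38 held more, at 0.57 ± 0.067 RPM (SD) in Dnmt3a +/+ and 0.56 ± 0.20 RPM in Dnmt3a Δ/D329A, above 53.6% of promoters. The difference there was -0.062 ± 0.27 (SE; adjusted p = 0.977). None of the 7 promoters was called, where 0% were called by limma and 8.9% had an unadjusted p under 0.05 (0 of the 7). The lowest adjusted p was 0.689, and groups overlapped at all 7, against 13.6% of promoters without overlap.

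Within Zbtb38 the 2 marks divided the gene. From the table start to the first RefSeq start, over 21 tiles, H3K27me3 averaged 0.609, 0.637 and 0.674 RPM in the Dnmt3a +/+ libraries, and 0.5002, 0.653 and 0.666 RPM in the Dnmt3a Δ/D329A libraries. These are close to the median autosomal tile of 0.600 to 0.649 RPM. From the last RefSeq start to the end of the gene, over 37 tiles, the Dnmt3a +/+ libraries held 0.0750, 0.0816 and 0.153 RPM and the Dnmt3a Δ/D329A libraries 0.0576, 0.0600 and 0.0733 RPM. Every library was thus lower in the downstream segment, while H3K36me3, laid down behind elongating polymerase, was higher there, at 1.53 to 1.71 RPM against 0.694 to 0.917 RPM in Dnmt3a +/+. The genotypes did not overlap in downstream H3K27me3, with an exact permutation p of 0.1, the smallest that 3 against 3 allow, against 20.8% of gene bodies whose groups did not overlap for this mark, at levels where 1 read a tile is worth 0.0382 to 0.0672 RPM. At the first RefSeq start, where H3K4me3 was highest, H3K27me3 stood at 1.09 ± 0.080 RPM (SD) in Dnmt3a +/+, above 73.4% of promoters, and at 1.01 ± 0.45 RPM in Dnmt3a Δ/D329A (log2 difference -0.21, adjusted p = 0.895). Input over both segments was 0.786 to 1.05 RPM.

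**Figure D4:**
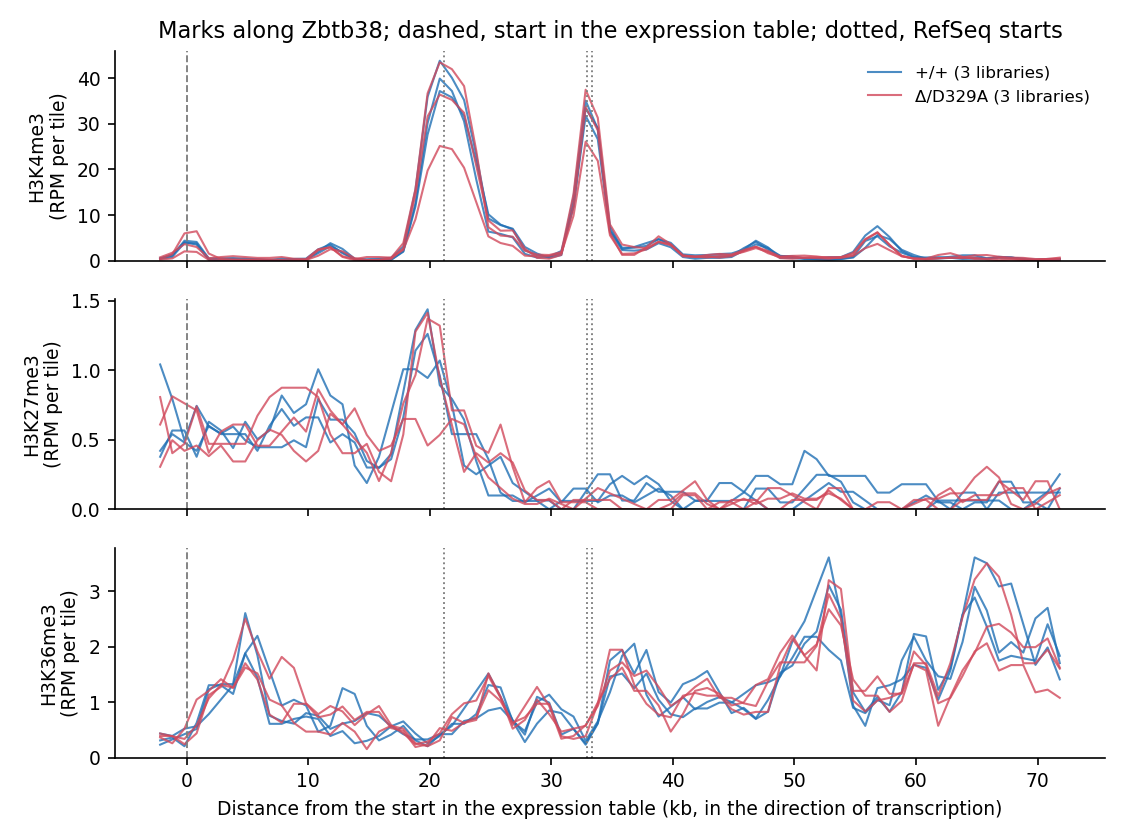
H3K4me3 (top), H3K27me3 (middle) and H3K36me3 (bottom), in RPM per tile of 2000 bp, along Zbtb38 against the distance in kb from its start in the expression table (dashed), with RefSeq starts dotted and 1 line per library (3 of each genotype). H3K4me3 peaks at the RefSeq starts and not at the table start, and H3K27me3 falls from 0.609 to 0.674 RPM in Dnmt3a +/+ upstream of the first RefSeq start to 0.0750 to 0.153 RPM downstream of the last.

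H3K36me3 over gene bodies ranged from 1.97 ± 0.13 RPM (SD, n = 3) at Mbd1 and 1.52 ± 0.092 RPM at Mbd2 to 0.92 ± 0.040 RPM at Zbtb4 and 0.79 ± 0.042 RPM at Zbtb33 in Dnmt3a +/+, where the median gene body held 0.897 RPM. Its order was not that of expression, since Zbtb4 was the most highly expressed of the 7 and Mbd4, the lowest, held 1.38 ± 0.091 RPM. Zbtb33 is read from a single X in these males, and input over it was 0.46 ± 0.058 RPM, against 0.799 to 0.918 RPM over the other 6 gene bodies. Over Zbtb4 H3K36me3 stood at 0.92 RPM beside an input of 0.91 RPM, and it was above the input over the other 6 genes.

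Over gene bodies, H3K36me3 did not overlap between the genotypes at 1 of the 7 genes, Mbd2. That share is not above the one over all gene bodies given below. Its gene body held 1.538, 1.600 and 1.418 RPM in Dnmt3a +/+ and 1.310, 1.391 and 1.255 RPM in Dnmt3a Δ/D329A. All 3 Dnmt3a Δ/D329A libraries lay below all 3 Dnmt3a +/+ libraries, by a log2 difference of -0.19 ± 0.061 (SE) with an adjusted p of 0.226 (limma). Groups without overlap were found for 23.5% of gene bodies, lower in Dnmt3a Δ/D329A for 16.7%, and an unadjusted p under 0.05 for 17.5% (1 of the 7, Mbd2). At promoters 6.58% passed (0 of the 7). At its promoter H3K36me3 went the other way without overlap, at 0.197, 0.213 and 0.157 RPM in Dnmt3a +/+ and 0.316, 0.319 and 0.289 RPM in Dnmt3a Δ/D329A, a log2 difference of 0.50 ± 0.25 (SE; adjusted p = 0.779), where groups did not overlap at 11.7% of promoters. These levels are few reads, since 1 read a tile is worth 0.0438 to 0.0525 RPM in the H3K36me3 libraries. They lie below the input there, at means of 0.776 RPM in Dnmt3a +/+ and 0.672 RPM in Dnmt3a Δ/D329A. Mbd3 had the largest expression difference of the 7, although it was not called. Its body held H3K36me3 at 1.22 ± 0.27 RPM (SD) in Dnmt3a +/+ and 1.32 ± 0.12 RPM in Dnmt3a Δ/D329A, which overlap (log2 difference 0.12 ± 0.15 SE, adjusted p = 0.715).

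No gene body or promoter of the 7 was called for H3K36me3, where limma called 0% of 20392 gene bodies and 0.0231% of promoters, and edgeR called 1% of the gene bodies it tested (0 of the 7). Over gene bodies H3K27me3 was low throughout, from 0.024 ± 0.010 RPM (SD) at Zbtb33 to 0.28 ± 0.014 RPM at Zbtb38 in Dnmt3a +/+, which is above 1.0% and 42.2% of gene bodies. The lowest adjusted p was at Mbd1, at 0.11 ± 0.034 RPM in Dnmt3a +/+ and 0.072 ± 0.0057 RPM in Dnmt3a Δ/D329A (adjusted p = 0.391). For H3K4me3 over gene bodies limma called 0.0049% and edgeR 0%, and for H3K27me3 over gene bodies 0% and 0.338%, with 0 of the 7 in each. At an unadjusted p under 0.05, 3.29% and 14% of gene bodies passed for these 2 marks, and 0 of the 7. At the Zbtb38 start 33386 bp downstream, H3K36me3 was 0.45 ± 0.028 RPM (SD) in Dnmt3a +/+ and 0.74 ± 0.055 RPM in Dnmt3a Δ/D329A without overlap, with a log2 difference of 0.61 ± 0.14 (SE) and an adjusted p of 0.717. The overlapping window at 32981 bp differed by 0.093 (adjusted p = 0.968).

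**Figure D5:**
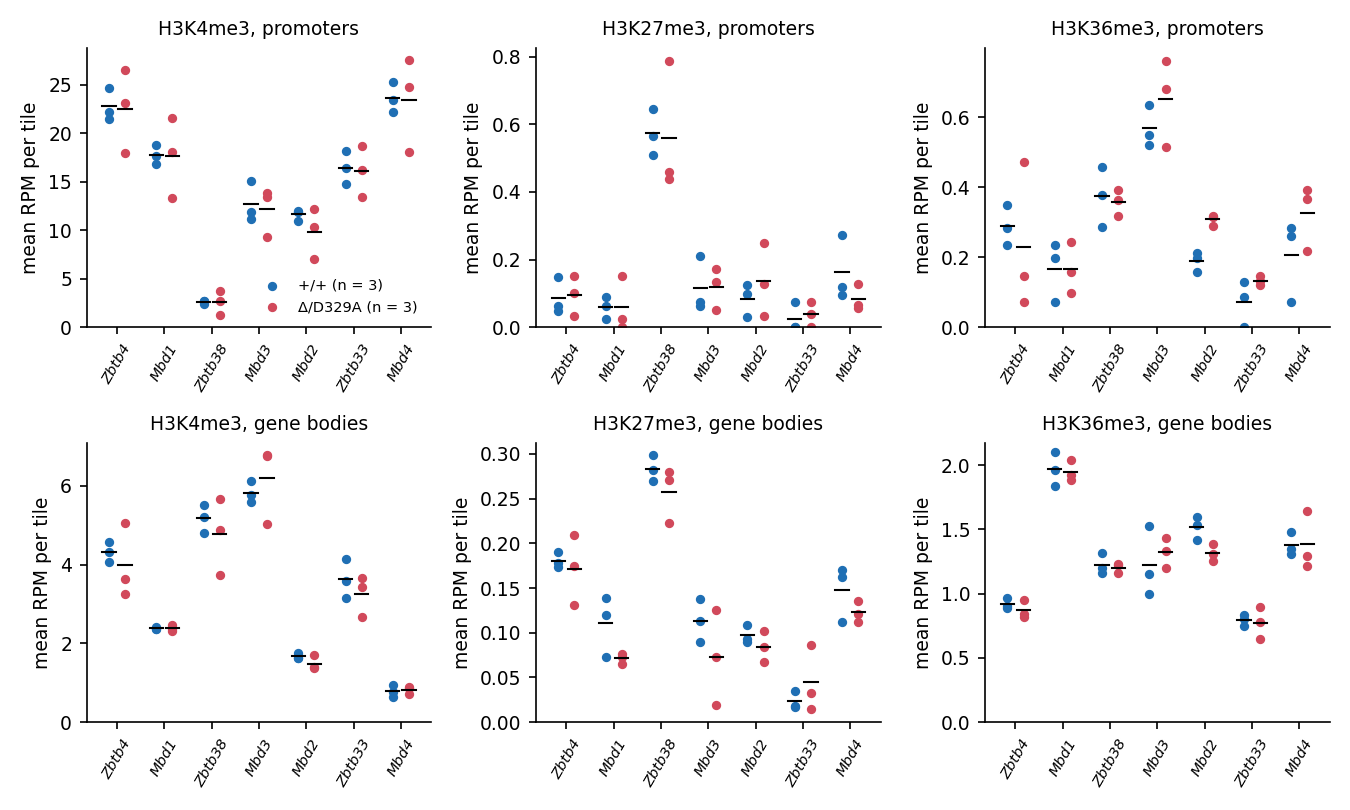
H3K4me3, H3K27me3 and H3K36me3 at promoters (top) and over gene bodies (bottom) of the 7 genes, in mean RPM per tile, with 1 point per library and a black line at each mean, for Dnmt3a +/+ (n = 3, blue) and Dnmt3a Δ/D329A (n = 3, red). H3K4me3 is low at the table start of Zbtb38 only, H3K27me3 is highest there, and the groups of Mbd2 do not overlap in H3K36me3 at the promoter or over the gene body.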

How the data were processed

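RNA-seq and ChIP-seq values of mouse hypothalamus were used. Reads were mapped to GRCm38, per the labels with Trim Galore 0.4.3, HISAT2 2.0.5 and Bowtie2 2.3.2. For RNA-seq, the authors deposited log2 RPKM values made with SeqMonk over merged exons, without strand. For ChIP-seq, the deposited signal counts the reads of each tile, corrected by the authors for mapped reads (RPM), with no input taken off. Whole reads were recovered for 100% of genes (within 0.02 reads) and of tile values (within 0.01), and a gene without reads is deposited at 0.9 reads.

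Genotypes were compared in R 4.3.3 by limma 3.58.1 with a mean-dependent prior variance, two-sided, with Benjamini-Hochberg adjustment over all features. Genes at 0.1 RPKM in at least 4 libraries were tested at an adjusted p under 0.01, and marks, as log2 of RPM plus 0.1, at 0.05. Mitochondrial genes were left out. Alternatives used edgeR 4.0.16 and DESeq2 1.42.0 on recovered reads, other scalings, filters, pseudocounts and windows. The fits were tested on simulated data. ChIP-seq libraries held 12676361 to 30207875 mapped reads. Exon GC content was taken from GENCODE exons for 87.46% of genes, and the recovered exon length differs from that annotation for most. The genes named are the 7 readers, Dnmt3a, up to 4 genes by smallest p in each of 6 partner lists, others of these lists chosen for their role after their values were seen, the 2 genes most like each reader at a mean of at least 1 RPKM, and genes that overlap a reader or start within 2000 bp of it. Readers and lists were chosen with earlier results of these data known. RNA-seq libraries are separate animals. Bisulfite libraries were not analysed here, and 1 of the 14 marker lists is not reported here.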

Additional observations from a re-analysis of the deposited data

How the results depend on the processing

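All 7 comparisons gave 0 of 7 genes called under every setting that tested them. edgeR tested none of the 7 for H3K27me3 or H3K36me3 at promoters, and 4 of 7 for H3K27me3 over gene bodies. Over 694 single-gene differences recomputed, 101 changed sign, none of them called, and none became called.

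With replicate numbers as a block, over the libraries that share a number, 0 of 7 genes were called for expression and for each mark. The numbers did not pair the samples (same-number correlation of deviations 0.137, -0.051, -0.048 and -0.054 in RNA-seq), and no calls of these genes were gained or lost. The expression difference of Mbd1 was -0.068 with the block and in the same 8 libraries without it, and that of Zbtb4 -0.074 in both. For Zbtb4, other settings gave -0.010 with median centring, -0.0019 with quantile normalisation, -0.090 with the GC trend removed, -0.013 with edgeR and -0.012 with DESeq2. Leaving out each library gave -0.068 to 0.21 for Mbd1, -0.10 to 0.15 for Zbtb4 and 0.58 to 0.83 for Mbd3, whose adjusted p then ranged from 0.174 to 0.552 (0.0272 to 0.552 over all settings).

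With median centring the median H3K4me3 difference over all promoters was 0.14. H3K4me3 at promoters then turned positive at Mbd1 (0.17), Mbd3 (0.14), Mbd4 (0.18), Zbtb33 (0.17), Zbtb4 (0.18) and Zbtb38 (0.066). With edgeR it was 0.049 at Mbd1, 0.036 at Mbd3, 0.025 at Mbd4, 0.19 at Zbtb33 and 0.065 at Zbtb4, and as a ratio to input 0.13 at Mbd1 and 0.038 at Zbtb4. Leaving out each library gave -0.19 to 0.16 at Mbd1, -0.17 to 0.11 at Mbd3, -0.16 to 0.15 at Mbd4, -0.15 to 0.084 at Zbtb33, -0.16 to 0.12 at Zbtb4 and -0.46 to 0.27 at Zbtb38. At Zbtb38, a promoter of 1000 bp either side gave 0.16 for H3K27me3 and 0.067 for H3K36me3, the RefSeq starts gave 0.093 and 0.61 for H3K36me3, and leaving out each library gave -0.29 to 0.068 and -0.18 to 0.088. For Mbd3 gene body H3K36me3 leaving out a library gave -0.0067 to 0.28, and for Mbd2 -0.24 to -0.15. The cause of these changes was not tested.

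Depth limits the marks near 0, since 1 read is worth 0.0382 to 0.0672 RPM in the H3K27me3 libraries and 6 of the 7 promoters held 0.025 to 0.16 RPM.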
